A study of Mus musculus with 2 samples.

Results

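The cGAS-STING pathway was followed here through 6 genes chosen by symbol: Mb21d1 (ENSMUSG00000032344, cGAS), Tmem173 (ENSMUSG00000024349, STING), Tbk1 (ENSMUSG00000020115), Ikbke (ENSMUSG00000042349), Irf3 (ENSMUSG00000003184) and Trex1 (ENSMUSG00000049734). Each symbol occurred once among the 31053 features of the count matrices. Of the 6, 5 had at least 100 UMIs (unique molecular identifiers, which mark single captured RNA molecules) in both libraries. Trex1 had 3 UMIs in the control library and 1 in the SHP099 library.

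The enzyme cGAS binds double-stranded DNA in the cytosol and makes the second messenger cGAMP, which binds STING on the endoplasmic reticulum. STING then moves to the Golgi and recruits the kinase TBK1, and in part its relative IKK-epsilon (Ikbke), which phosphorylates IRF3 and so switches on Ifnb1 and other interferon genes. The exonuclease TREX1 degrades cytosolic DNA and so limits the pathway. In tumours the pathway is best known from dendritic cells and macrophages that take up tumour DNA, and from tumour cells with damaged or missegregated chromosomes. Signalling runs through protein modification, so RNA levels show which cells carry the parts, not whether the pathway is active.

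The tumours were raised in C57BL/6 mice from MC38, a colon carcinoma line of the same strain, injected into 1 flank. Treatment began 5 days after injection, at a mean tumour size of 100 mm3, and ran for 14 days, with 6 mice in each of the 2 groups. Mice of the treated group received SHP099 hydrochloride, an allosteric inhibitor of the phosphatase SHP2 (Ptpn11), at 5 mg/kg by gavage every day. Control mice received PBS according to the protocol, although their sample is also labelled untreated. There was 1 library per treatment, and the labels do not say how many tumours were pooled for it. With 1 library per group no difference below has a replicate check, no test was made, and the 95% intervals cover counting error only.

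The control library held 8245 barcodes and 126218180 UMIs, and the SHP099 library 8263 barcodes and 112901642 UMIs, with 100 barcode sequences present in both. After filters, 7688 control cells and 7702 SHP099 cells remained in 18 clusters. Class names rest on marker genes and stand for cells resembling a type, so "T cells" below is short for T cell-like cells. The largest class was called Xist-negative, because its 7 clusters had 2.51 to 3.75 CPM of Xist (UMIs of a gene in the class or cluster, relative to all its UMIs and scaled to a common total) against 363 to 1682 CPM in the other clusters. It carried the oncofetal genes Hmga2 (95.9 CPM) and Igf2bp2 (49.0 CPM), while the epithelial genes Epcam and Krt8 were both at 0.204 CPM, and held 4194 control and 4298 SHP099 cells. The mononuclear phagocytes held 2547 and 2619 cells, the T cells 518 and 395, the dendritic cells 101 and 85, the NK cells 93 and 53, and the fibroblasts 78 and 54. The complement gene C1qa was at 4500 CPM in phagocytes and Cd3e at 617 CPM in T cells. Endothelial cells (27 and 46) were too few for the order of levels, and 1 cluster of 130 and 152 shallow cells stayed unnamed. Median depth was 24290.5 and 20141.5 UMIs in Xist-negative cells, 4406 and 4308 in phagocytes, and 2374.5 and 2025 in T cells, so levels are given as CPM. Ptpn11, whose product SHP099 binds, was at 53.8 and 55.5 CPM in Xist-negative cells.

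The 3 promoters below are shown because they belong to the sensor and to the 2 kinases, whose levels were distributed differently over the cell classes. Each is the 250 bases before the annotated start, minus strand, from RefSeq on GRCm38.p6, in lower case with CpG pairs in capitals. The windows are chr10:121586795-121587044 for Tbk1, chr1:131279564-131279813 for Ikbke and chr9:78443238-78443487 for Mb21d1.
Tbk1: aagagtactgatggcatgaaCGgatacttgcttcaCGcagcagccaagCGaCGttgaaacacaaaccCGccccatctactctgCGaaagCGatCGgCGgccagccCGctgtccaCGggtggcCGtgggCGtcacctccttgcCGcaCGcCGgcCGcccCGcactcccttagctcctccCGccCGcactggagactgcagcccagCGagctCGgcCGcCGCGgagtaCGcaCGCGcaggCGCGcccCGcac
Ikbke: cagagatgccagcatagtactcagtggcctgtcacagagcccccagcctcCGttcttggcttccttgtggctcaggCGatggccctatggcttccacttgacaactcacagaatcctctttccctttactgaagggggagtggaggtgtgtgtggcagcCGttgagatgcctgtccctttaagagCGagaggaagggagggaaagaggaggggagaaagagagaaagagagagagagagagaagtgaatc
Mb21d1: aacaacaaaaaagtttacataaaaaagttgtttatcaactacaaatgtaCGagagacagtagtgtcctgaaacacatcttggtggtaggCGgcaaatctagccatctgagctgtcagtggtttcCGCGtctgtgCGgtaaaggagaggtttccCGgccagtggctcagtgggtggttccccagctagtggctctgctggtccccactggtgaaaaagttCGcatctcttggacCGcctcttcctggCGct
The Tbk1 window held 31 CpG pairs, and 95.4% of 32851 promoter windows of that length held as many or fewer. The Ikbke window held 4, below the median of 6 over all promoters, and the Mb21d1 window held 9. The same stretch of Irf3 (chromosome 7, plus strand) held 16. Of all windows 44.4% held as many CpG pairs as Ikbke or fewer, so Ikbke was near the middle and Tbk1 near the top. Both strands of these 4 windows were searched for a core of the interferon-stimulated response element (in 2.98% of all promoters), the cell cycle homology region (TTTGAA, 16%), a PU-box core (GAGGAA, 23.3%), an NRF1 core (GCGCATGC, 2.26%) and an E2F core (TTTCGCGC, 0.256%). The only match was a PU-box core in Ikbke, 62 bases before the start. A match is a run of letters and not a measured binding site, and a missing match says nothing about the factor.

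The sensor gene Mb21d1 lies on chromosome 9 (78430526 to 78443237, minus strand, GRCm38) and is named Cgas in later annotation. In Xist-negative cells it was at 15.9 CPM in control (1658 UMIs, 95% interval 15.2 to 16.7) and 15.04 CPM in SHP099 (1388 UMIs, 14.3 to 15.8). In phagocytes it was at 12.7 CPM (149 UMIs, 10.8 to 14.97) in control and 18.8 CPM (232 UMIs, 16.4 to 21.4) in SHP099. The 2 large classes were thus within 1.5-fold of each other, with phagocytes below in control (ratio 0.801, 0.673 to 0.948) and above in SHP099 (1.25, 1.08 to 1.44). A ratio as high as that of Mb21d1 was reached by 51.8% of genes in control and 32.6% in SHP099. Dendritic cells had 10.3 and 10.4 CPM from 4 UMIs each, and fibroblasts 3.12 and 4.15 CPM from 2 UMIs each. NK cells had 8.61 CPM (3 UMIs) and 29.6 CPM (6 UMIs). In control the intervals of neighbours in the order of classes overlapped, although that of the Xist-negative cells lay above those of phagocytes and fibroblasts.

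Within the 2 large classes, Mb21d1 was highest in the dividing clusters. Summed over both libraries, it reached 24.2 CPM (23.0 to 25.6) in cluster 1 and 25.4 CPM (23.1 to 27.8) in cluster 2, the Xist-negative clusters led by Cenpf, Top2a, Aspm and histone genes. The other 5 Xist-negative clusters lay between 7.72 and 12.504 CPM. The highest level of all 18 clusters, 36.7 CPM (29.7 to 44.8), was in phagocyte cluster 4, where the proliferation marker Mki67 was at 180 CPM. The other phagocyte clusters lay between 11.2 and 16.5 CPM. T cells, a single cluster with 80.4 CPM of Mki67, had 8.98 CPM of Mb21d1 over both libraries, whose levels differed. None of the 6 genes entered the clustering, although the cell cycle genes did.

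Cells were also split by whether they had a Mki67 UMI. Xist-negative cells with a Mki67 UMI had 21.6 CPM of Mb21d1 in control (1505 cells) and 23.2 CPM in SHP099 (1182 cells). Those without one had 11.1 CPM (2689 cells) and 10.2 CPM (3116 cells), and no interval of the first kind overlapped one of the second. In phagocytes with and without a Mki67 UMI the levels were 21.2 (11.9 to 34.96) and 12.2 CPM (10.2 to 14.5) in control, with overlapping intervals, and 30.04 (23.1 to 38.4) and 16.4 CPM (14.04 to 19.1) in SHP099, with separate ones. T cells had 19.9 and 12.2 CPM in control and 3.31 and 1.37 CPM in SHP099, from 1 to 15 UMIs each. Over the 18 clusters the genes most like Mb21d1, by Pearson r of log2(CPM + 10) among 8291 genes, were Pmf1 (0.91), a kinetochore gene, Chaf1b (0.84), a chromatin assembly factor gene, and Arhgef39 (0.84). Mki67 itself had r = 0.70. The clusters share 2 libraries and differ in depth, so these values describe likeness only.

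**Figure D1:**
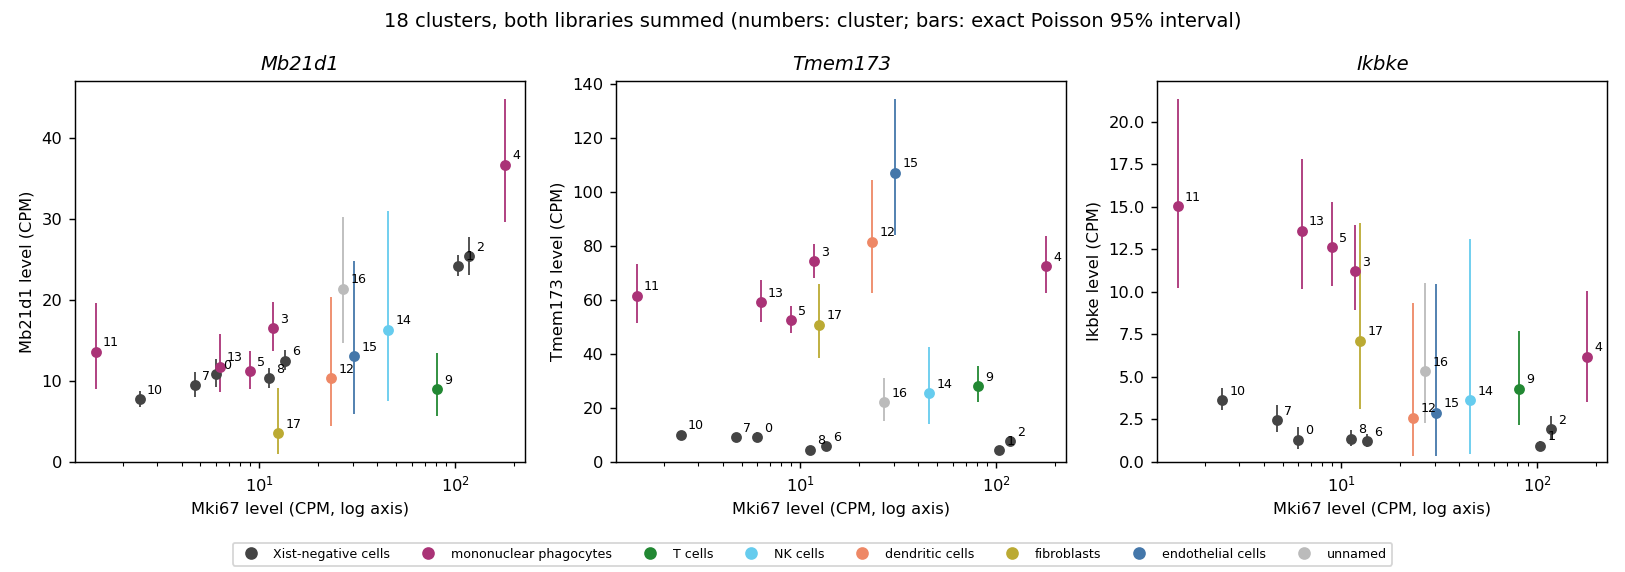
Level of Mb21d1, Tmem173 and Ikbke (CPM) against the level of Mki67 (CPM, log axis) in 18 clusters with both libraries summed; points are clusters coloured by class, and bars are exact Poisson 95% intervals. Mb21d1 is highest in the dividing clusters 1, 2 and 4, while Tmem173 separates the phagocyte clusters from the Xist-negative ones at any Mki67 level. Every phagocyte cluster also has a higher Ikbke level than every Xist-negative one, but the Ikbke intervals of clusters 4 and 10 overlap.

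The adaptor gene Tmem173 lies on chromosome 18 (35733679 to 35740554, minus strand). Xist-negative cells had 6.36 CPM in control (662 UMIs, 5.88 to 6.86) and 6.84 CPM in SHP099 (631 UMIs, 6.31 to 7.39). Phagocytes had 63.3 CPM (740 UMIs, 58.8 to 68.0) and 62.9 CPM (777 UMIs, 58.5 to 67.5). STING RNA was thus 9.96 times higher in phagocytes than in Xist-negative cells in control (8.96 to 11.1) and 9.20 times higher in SHP099 (8.27 to 10.2). Of all genes at 10 CPM or more in either class, 27.3% in control and 26.4% in SHP099 were at least 1.5-fold higher in phagocytes, and 8.27% and 8.32% had a fold as high as that of Tmem173.

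Every Xist-negative cluster was low in Tmem173, between 4.19 and 9.96 CPM, and every phagocyte cluster high, between 52.4 and 74.3 CPM. The dividing phagocytes of cluster 4 were at 72.6 CPM and the monocytes of cluster 11 at 61.6 CPM, both inside that range. RNA freed from phagocytes can enter other droplets: 10 macrophage markers summed to 0.545% of their phagocyte level in control Xist-negative cells and 0.672% in SHP099. Tmem173 stood at 10.0% and 10.9% of its phagocyte level in the same cells. How much of this level is stray RNA was not tested. T cells were intermediate, at 26.8 CPM (41 UMIs, 19.2 to 36.4) and 29.997 CPM (31 UMIs, 20.4 to 42.6), with macrophage markers at 0.8004% and 0.9916% of the phagocyte level.

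The small classes held few of the Tmem173 UMIs, although the level was high in some of them. Dendritic cells were highest in control, at 108 CPM (42 UMIs, 78.0 to 146), and were at 54.6 CPM (21 UMIs, 33.8 to 83.4) in SHP099. Their interval overlapped that of the phagocytes in SHP099 and not in control. Fibroblasts had 59.3 CPM (38 UMIs) and 39.4 CPM (19 UMIs), and NK cells 17.2 CPM (6 UMIs) and 39.5 CPM (8 UMIs). Endothelial cells, outside the order because of their number, had 147 CPM (45 UMIs, 107 to 197) and 75.4 CPM (29 UMIs, 50.5 to 108). The genes most like Tmem173 over the clusters were Sh3bgrl (0.98), Cmtm6 (0.97), which stabilises PD-L1, and the adhesion gene Icam1 (0.96).

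Sensor and adaptor were also counted in the same cells. In control Xist-negative cells 28.3% had a UMI of Mb21d1 and 13.2% one of Tmem173, and in SHP099 23.1% and 12.2%. Both had a UMI in 177 of 4194 control Xist-negative cells (4.22%, exact binomial 3.63 to 4.87) and 137 of 4298 SHP099 cells (3.19%, 2.68 to 3.76). In phagocytes, which hold fewer UMIs per cell, Mb21d1 was seen in 5.34% and 8.17% of cells and Tmem173 in 23.4% and 23.7%. Both were seen in 1.88% (1.39 to 2.49) and 2.86% (2.26 to 3.58) of cells. In T cells 1 control cell and 0 of 395 SHP099 cells had both, the latter allowing a share of up to 0.930%. A missing UMI does not show a missing transcript at these depths.

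Depth also sets the share of cells with a UMI, so cells were drawn down to 2000 UMIs. Tmem173 was then found in 1.19% of Xist-negative cells in control and 1.195% in SHP099, from 13.2% and 12.2% at full depth. In phagocytes the thinned shares were 11.5% and 11.9%, from 23.4% and 23.7%. Thinning left out 86 and 31 Xist-negative cells and 235 and 214 phagocytes. For Mb21d1 the thinned shares were 2.65% and 2.91% in Xist-negative cells and 2.68% and 3.24% in phagocytes. The intervals of these 2 phagocyte shares overlapped, with 2.06 to 3.42% in control and 2.57 to 4.03% in SHP099. The ratio of the phagocyte shares, SHP099 over control, was 1.21 at this depth. It was 1.72 (1.27 to 2.34) when cells were drawn down to 4000 UMIs. That depth leaves out all phagocytes with fewer UMIs, where the class medians are 4406 and 4308.

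Both kinase genes were higher in phagocytes than in Xist-negative cells, by different amounts. Tbk1 (chromosome 10, 121546455 to 121586787, minus strand) encodes the main kinase and was found in every class. It was at 13.2 CPM (1377 UMIs) and 14.5 CPM (1340 UMIs) in Xist-negative cells and at 25.7 CPM (300 UMIs) and 25.3 CPM (313 UMIs) in phagocytes. The ratio of phagocytes to Xist-negative cells was 1.94 (1.71 to 2.20) in control and 1.74 (1.54 to 1.97) in SHP099, as high or higher in 21.1% and 22.6% of genes. Tbk1 varied little within a class, from 13.0 to 17.2 CPM over the Xist-negative clusters and from 20.9 to 29.6 CPM over the phagocyte clusters. T cells had 17.0 CPM (26 UMIs) and 24.2 CPM (25 UMIs). The genes most like Tbk1 over the clusters were Cyth1 (r = 0.92), Plekhb2 (0.91) and Vps18 (0.89), a gene of vesicle tethering.

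Ikbke (chromosome 1, 131254343 to 131279606, minus strand) encodes IKK-epsilon, the inducible relative of TBK1. It was at 1.42 CPM in control Xist-negative cells (148 UMIs, 1.201 to 1.669) and 2.12 CPM in SHP099 (196 UMIs, 1.84 to 2.44). Phagocytes had 12.49 CPM (146 UMIs, 10.5 to 14.7) and 11.2 CPM (139 UMIs, 9.46 to 13.3). The ratio between these classes was 8.79 (6.95 to 11.1) in control and 5.30 (4.23 to 6.62) in SHP099, reached by 9.32% and 10.8% of genes. Ikbke therefore shared the phagocyte pattern of Tmem173.

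Among phagocytes Ikbke was lowest in the dividing cluster 4, at 6.17 CPM (3.53 to 10.0), and highest in the monocytes of cluster 11, at 15.03 CPM (10.2 to 21.3). Among Xist-negative cells it was highest in cluster 10, at 3.63 CPM (3.02 to 4.32), a cluster led by Aspn, Ogn and Dpt, and lowest in the dividing cluster 1, at 0.935 CPM (0.698 to 1.23). Cluster 4 had the highest Mb21d1 level of the phagocytes and cluster 10 the lowest of the Xist-negative cells, so at these ends the 2 genes ran opposite ways. This did not hold throughout. Cluster 2, the Xist-negative cluster highest in Mb21d1, had 1.93 CPM of Ikbke, above clusters 0 (1.31), 6 (1.21) and 8 (1.35). Dendritic cells, high in Tmem173, had 0 Ikbke UMIs in control, which allows up to 7.73 CPM, and 2 in SHP099. The genes most like Ikbke were Rab20 (0.95), Cndp2 (0.94) and Prdx5 (0.94).

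Irf3 (chromosome 7, 44997648 to 45002848, plus strand) encodes the transcription factor at the end of the chain and was found in every class. Xist-negative cells had 12.9 CPM (1340 UMIs) and 14.5 CPM (1337 UMIs), and phagocytes 14.5 CPM (170 UMIs) and 18.05 CPM (223 UMIs). The ratio of phagocytes to Xist-negative cells was 1.13 (0.958 to 1.33) and 1.25 (1.08 to 1.44), reached by 36.8% and 32.8% of genes. T cells had 26.2 CPM (40 UMIs) and 25.2 CPM (26 UMIs), which was 2.03 times (1.45 to 2.78) and 1.74 times (1.13 to 2.56) the Xist-negative level. Of the Xist-negative clusters, cluster 0, led by H19, stood out at 20.4 CPM (18.1 to 22.9), against 11.6 to 15.9 CPM in the other 6. The genes most like it were Fchsd2 (r = 0.88), Socs4 (0.86) and Mul1 (0.85). Irf3 shares 88 exonic bases with Bcl2l12 on the other strand, none of them in its last 300.

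**Figure D2:**
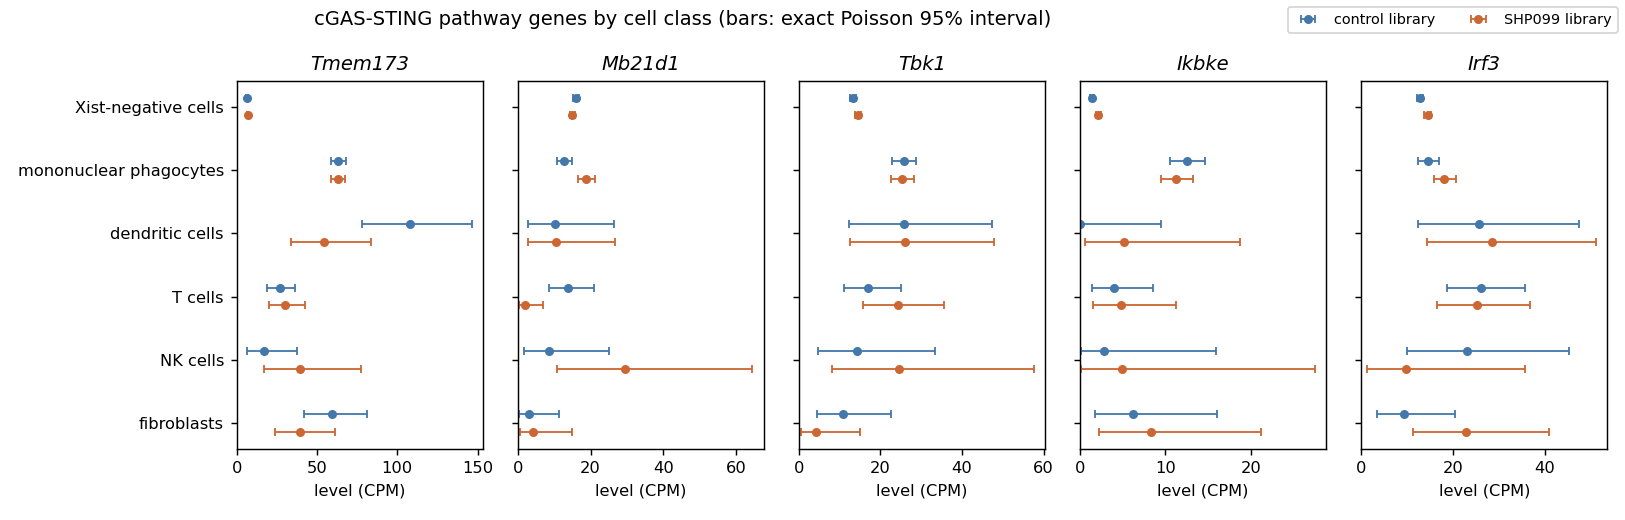
Level (CPM) of the 5 measured genes in 6 cell classes, with the control library in blue and the SHP099 library in orange; points are class sums and bars exact Poisson 95% intervals. Tmem173 and Ikbke are low in Xist-negative cells and high in phagocytes in both libraries, while Mb21d1 and Irf3 lie close together in these classes.

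Trex1 could not be measured. Its 3 control UMIs and 1 SHP099 UMI all fell in Xist-negative cells, and its 0 UMIs in phagocytes allow up to 0.257 and 0.243 CPM. In GENCODE M21 the gene (chromosome 9, 109057933 to 109059734, minus strand) has 1147 exonic bases, and 100% of them also lie in exons of Atrip on the same strand. Of 9 Atrip transcripts 3 run over Trex1, and the last 300 bases of Trex1, where a 3′ library reads, are shared too. Where an annotation holds this overlap, reads from there cannot be assigned to 1 of the 2 genes, and the low count then says nothing about the exonuclease. The labels do not name the annotation that the authors counted with.

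Atrip, which encodes the partner of the checkpoint kinase ATR, had 1388 and 1212 UMIs in the cells kept. It was at 12.3 and 11.6 CPM in Xist-negative cells and at 5.65 CPM (66 UMIs) and 9.31 CPM (115 UMIs) in phagocytes. T cells had 13.7 CPM (21 UMIs) in control and 4.84 CPM (5 UMIs) in SHP099. Whether any of these UMIs came from Trex1 cannot be told apart.

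**Figure D3:**
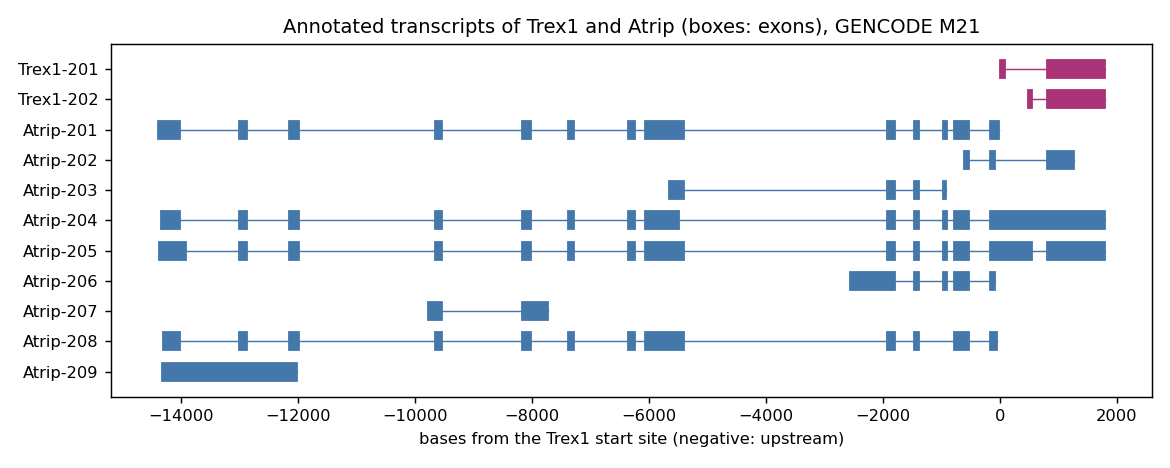
Annotated transcripts of Trex1 (purple) and Atrip (blue) in GENCODE M21, with exons as boxes, against the distance in bases from the Trex1 start site. All Trex1 exons fall inside exons of Atrip transcripts that run over the gene.

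The question of the design was how the cells differ after SHP099. Log2 ratios of SHP099 over control were taken on CPM + 0.5, and a gene counted as different at 1.5-fold or more if it had 10 CPM or more in either library. The counting intervals leave the 0.5 out. In Xist-negative cells 0 of the 3 genes that reached 10 CPM differed, where 1.35% of 7034 genes did. In phagocytes 0 of 5 differed, against 6.28% of 6798 genes. In T cells 1 of 4 differed, against 18.2% of 6869 genes. At these background shares a count of 0 among 3 or 5 genes says nothing particular about the members, so their own ratios follow.

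Tmem173 in phagocytes had a log2 ratio of -0.01 (-0.16 to 0.14) and Tbk1 -0.02 (-0.25 to 0.21). In Xist-negative cells Tmem173 was at 0.10 (-0.05 to 0.26), Mb21d1 at -0.08 (-0.19 to 0.02) and Tbk1 at 0.13 (0.03 to 0.24). These intervals all stay inside 1.5-fold. The lower Tmem173 of dendritic cells (log2 ratio -0.98, -1.82 to -0.20) and of endothelial cells (-0.96, -1.69 to -0.26) rested on 63 and 74 UMIs over both libraries. Irf3 had 0.16 (0.06 to 0.28) in Xist-negative cells and 0.30 (0.02 to 0.61) in phagocytes.

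Mb21d1 in phagocytes was higher in the SHP099 library by 0.54 on the log2 scale (0.26 to 0.87), just under 1.5-fold. The dividing cluster 4, where Mb21d1 is highest, held 68 control and 273 SHP099 cells. Cluster 3 (16.5 CPM of Mb21d1) held 570 and 982 cells, and cluster 5, the lowest at 11.2 CPM, 998 and 567. Without cluster 4 the class ratio was 0.28, and among phagocytes without a Mki67 UMI it was 0.41 (0.09 to 0.77). By cluster the ratio was 0.03 in cluster 3, 0.48 in cluster 4, 0.23 in cluster 5, 1.35 (0.12 to 2.89; 7 and 21 UMIs) in cluster 11 and -0.07 in cluster 13. Cluster 11, the monocytes, was the only one of these 5 with an interval clear of 0. The part of these shifts among clusters in the class ratio was not tested beyond these values.

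In T cells Mb21d1 was at 13.7 CPM in control (21 UMIs, 8.50 to 21.002) and 1.94 CPM in SHP099 (2 UMIs, 0.234 to 6.99), a log2 ratio of -2.55 (-5.96 to -0.80). It was seen in 20 of 518 control cells and 2 of 395 SHP099 cells. Clustering each library alone gave -1.05 and keeping the doublets -1.43, so the size of this lower level depends on which cells are counted as T cells. Of the 6869 genes, 7.44% were at least 1.5-fold lower in T cells.

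Ikbke in Xist-negative cells had a log2 ratio of 0.45 (0.26 to 0.90), from 148 and 196 UMIs, and lay under the 10 CPM needed to be counted. It was 0.87 (-0.07 to 2.41) in cluster 7 and 0.82 (0.10 to 2.24) in cluster 8, -0.04 and 0.02 in the dividing clusters 1 and 2, 0.57 in cluster 0 and -0.04 in cluster 6. Cluster 10, where Ikbke is highest, had 0.31 (-0.19 to 0.90) and held 716 control and 1072 SHP099 cells, while cluster 1, where it is lowest, held 963 and 681. Among cells without a Mki67 UMI the ratio was 0.45 (0.19 to 0.93). With cells classed by their own marker counts, in place of clusters, the class ratio was -0.42, so its direction is not settled.

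**Figure D4:**
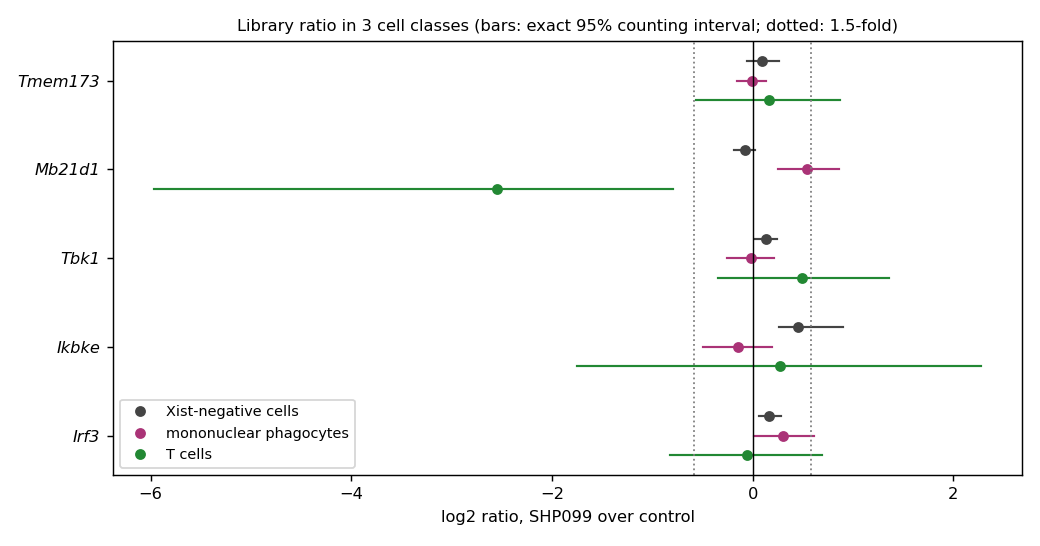
Log2 ratio of SHP099 over control for the 5 measured genes in 3 cell classes; points are ratios on CPM + 0.5, bars exact 95% counting intervals without the 0.5, and dotted lines 1.5-fold. Only Mb21d1 in T cells lies past a dotted line, and Mb21d1 in phagocytes lies just inside one.

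Around the 6 genes, 9 lists with 115 other genes of the pathway were read the same way. Genes around STING and its kinases come first. Of 15 measured genes of STING trafficking and modification, 0 passed 1.5-fold in Xist-negative cells (median log2 ratio 0.02, all genes 0.02), and in phagocytes 0 of 18 did (median -0.02, all genes 0.05). Adaptors of the 2 kinases gave 0 of 8 and 0 of 10. Over all genes 1.35% passed 1.5-fold in Xist-negative cells and 6.28% in phagocytes. Against these shares, counts of 0 in lists of this size say nothing particular about the lists. In T cells, where 10.7% of all genes were higher and 7.44% lower, 1 of 18 STING trafficking genes was higher and 2 were lower, and 3 of 10 adaptors were lower. Of the genes that clear nucleic acids, 4 of 9 were higher in T cells. In phagocytes 1 of 10 was higher (all genes 4.38%), and in Xist-negative cells 0 of 8 (all genes 1.12%). DNA sensors other than cGAS gave 3 of 11 higher and 1 lower in T cells and none past 1.5-fold among 8 in phagocytes and 10 in Xist-negative cells. Of the kinase adaptors in phagocytes, those at the low end were the TBK1-binding gene Tbkbp1 (14.3 and 9.39 CPM, log2 ratio -0.58) and the ubiquitin ligase gene Traf6 (-0.44). Ulk1, a kinase gene that acts on STING, was also at -0.58.

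The genes downstream of IRF3 and of interferon had medians above that of all genes in the 3 classes. In Xist-negative cells 3 of 10 were at least 1.5-fold higher, with a median log2 ratio of 0.39, where 1.12% of all genes were higher. In phagocytes 6 of 12 were higher and 1 lower, with a median of 0.60, where 4.38% of genes were higher and 1.9% lower. In T cells 7 of 11 were higher, with a median of 1.00 against 0.07 over all genes, of which 10.7% were higher. The antiviral gene Ifit1 was at 87.6 and 166 CPM in Xist-negative cells (log2 ratio 0.92), 58.3 and 125 CPM in phagocytes (1.09) and 37.3 and 95.8 CPM in T cells (1.35). Irf7, which amplifies interferon production, is on another list, the transcription factors beside IRF3, and was at 73.0 and 120 CPM in Xist-negative cells (0.71). Of that list 1 of 13 was higher in Xist-negative cells (median 0.04) and 2 of 12 in T cells (median 0.13). In phagocytes 0 of 13 were higher and 1 lower (median 0.01). Of the interferon targets, the chemokine gene Cxcl10 was at 630 and 685 CPM in Xist-negative cells (0.12). Ccl5, another chemokine gene on the list, went the other way in phagocytes, with 1464 and 701 CPM (-1.06). In the phagocytes the mitochondrial share of UMIs was 2.17% and 3.08%, haemoglobin genes were at 1.88 and 21.6 CPM and 6 neutrophil markers summed to 123 and 41.1 CPM, and their part in these differences was not tested.

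Genes that reach TBK1 and IRF3 by other routes had medians of 0.43 in Xist-negative cells, 0.37 in phagocytes and 0.38 in T cells, where 1 of 5 was higher (all genes 10.7%). In phagocytes 3 of 9 were higher (all genes 4.38%), among them the RNA sensor gene Ddx58 (27.7 and 53.3 CPM, log2 ratio 0.93) and the endosomal receptor gene Tlr3 (15.5 and 27.8 CPM, 0.82). In Xist-negative cells 1 of 6 was higher (all genes 1.12%), Dhx58 (10.2 and 15.9 CPM, 0.62), with Ifih1 at 0.55. Many of these sensors are themselves interferon targets. Over all 9 lists 5 of 79 measured genes were higher in Xist-negative cells, 10 of 89 were higher and 2 lower in phagocytes, and 19 of 84 were higher and 6 lower in T cells. Over all genes the shares were 1.12% higher in Xist-negative cells, 4.38% higher and 1.9% lower in phagocytes, and 10.7% and 7.44% in T cells. These lists were assembled with earlier results on interferon genes known, so their direction is not independent evidence.

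**Figure D5:**
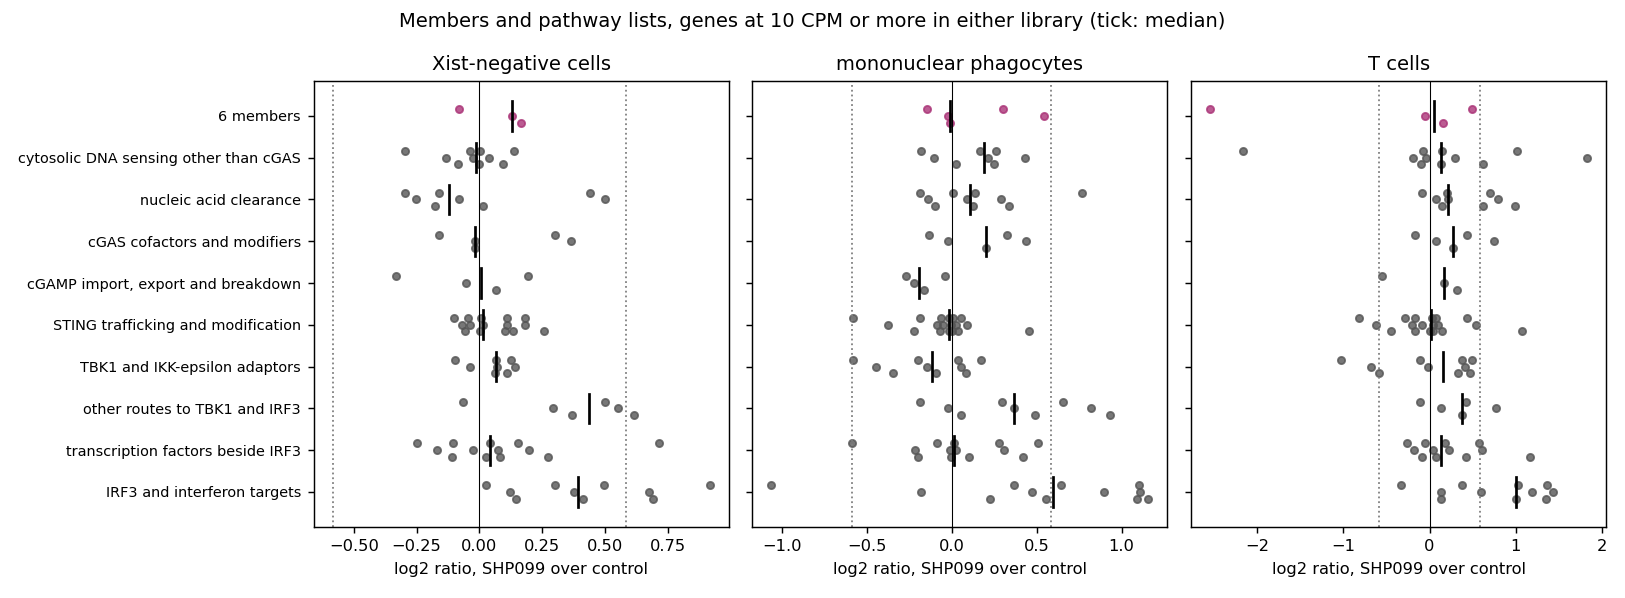
Log2 ratio of SHP099 over control for the 6 genes and the 9 pathway lists in 3 cell classes, with 1 point per gene at 10 CPM or more in either library, a tick at each list's median and dotted lines at 1.5-fold. In all 3 classes the median of the IRF3 and interferon targets lies to the right, at 0.39, 0.60 and 1.00, while the lists around STING and its kinases centre near 0.

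The direct product of the pathway, Ifnb1, was rare. Xist-negative cells held 6 UMIs in 4 control cells and 55 UMIs in 15 SHP099 cells. Of the 55, 37 came from 2 cells with 22 and 15 UMIs, and 18 remain without them. Phagocytes, the class rich in Tmem173 and Ikbke, held 3 UMIs in control and 1 in SHP099, and T cells 0 in both. These classes hold fewer UMIs in all. In control, phagocytes were at 0.257 CPM (0.0529 to 0.750) and Xist-negative cells at 0.0576 CPM (0.0211 to 0.125). In SHP099 they were at 0.0809 CPM (0.00205 to 0.451) and 0.596 CPM (0.449 to 0.776). In SHP099 T cells 0 UMIs allow up to 2.90 CPM, above the Xist-negative level. The unnamed cluster held 0 UMIs in control and 4 in SHP099 (5.03 CPM, 1.37 to 12.9). Ifna4 had 0 UMIs. Enpp1, whose product breaks down cGAMP outside the cell, was nearly absent from Xist-negative cells (2 UMIs in each library) and was at 2.91 and 3.48 CPM in phagocytes. T cells had more, at 7.20 CPM (11 UMIs) and 5.81 CPM (6 UMIs). Fibroblasts had 6.25 CPM (4 UMIs) and 26.95 CPM (13 UMIs), a log2 ratio of 2.02 (0.41 to 4.18).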

How the data were processed

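Tumour single-cell suspensions were captured with the 10x Chromium 3′ kit, per the labels' protocols. The deposited matrices hold UMI counts per gene and barcode, made by the authors with Cell Ranger on mm10 (GRCm38) as the submitters' processing notes have it. Per the file headers the software wrote version 3.1.0 of the format. No label names the annotation.

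Barcodes with at least 200 genes and at most 20% mitochondrial UMIs were kept (99 and 103 failed the first limit, 282 and 333 the second). Scrublet doublets, 264 in control (3.32%) and 198 in SHP099 (2.51%), were removed, fewer than the 6.60% and 6.61% expected. Both libraries were clustered together from 2000 variable genes, without the 6 genes and the pathway lists, with 30 principal components, 15 neighbours and Leiden resolution 1.0. Clusters were named where 3 or more markers of 1 list passed 2 limits: a UMI in 10% of cells, and a level 2 times that of other clusters. Clusters whose Xist CPM was below 0.1 times the cluster median formed the Xist-negative class. A much shallower cluster (0.117 of its libraries' median depth) with no marker among its leading genes stayed unnamed.

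UMIs were summed per class and library and divided by the class total (CPM), with exact Poisson intervals. Ratios used a prior of 0.5 CPM. Shares have exact binomial intervals at 95%, and a count of 0 in a class was read as up to 3 UMIs. The ratio code was checked on simulated data. The 6 genes and a fixed panel were always named. Of each list, up to 2 genes at either end per class could be named, and for each member the 3 genes most like it. Atrip was named because it overlaps Trex1. The members and lists were chosen with earlier results of these data known. Alternatives covered doublets, filters, resolution, class definition, weighting and scaling. Clustering used scanpy 1.11.5, anndata 0.12.19, scikit-learn 1.9.0 and python-igraph 0.11.9. Intervals came from scipy 1.17.1 under Python 3.11.15 with pandas 2.3.3 and numpy 2.4.6, and plots from matplotlib 3.10.9.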

Additional observations from a re-analysis of the deposited data

Results flagged for a closer look

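Mb21d1 differed in opposite directions in 2 cell classes: its log2 ratio of SHP099 over control was 0.54 in mononuclear phagocytes (149 and 232 UMIs) and -2.55 in T cells (21 and 2 UMIs). The counting intervals of the 2 ratios, 0.26 to 0.87 and -5.96 to -0.80, do not overlap. With 1 library per group the difference between the classes was not tested. Under every alternative run the phagocyte ratio stayed between 0.28 and 0.57 and the T cell ratio between -3.26 and -1.05. Atrip, which is outside the 6 genes, also had ratios of opposite sign. They were 0.67 (0.27 to 1.18) in phagocytes and -1.42 (-3.27 to -0.06) in T cells.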

How the results depend on the processing

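No paired analysis was possible because each group has 1 library. Of 190 log2 ratios of single genes under an alternative, 184 moved by less than their counting interval and 6 by more. All 6 were in Xist-negative cells: with cells classed by their own marker counts Tmem173 was at -0.19, Mb21d1 at 0.21, Tbk1 at 0.25, Ikbke at -0.42 and Irf3 at -0.01, and with clusters weighted alike Mb21d1 was at 0.11. The direction of Ikbke in that class therefore depends on how cells are classed, and the cause was not tested. The counts of genes past 1.5-fold stayed at 0 in Xist-negative cells and phagocytes in all alternatives run. Cells with a Mki67 UMI were not among these alternatives. In such phagocytes Irf3 was at 9.89 and 20.7 CPM (7 and 44 UMIs), a log2 ratio of 1.03 (-0.10 to 2.46). In T cells the count was 2 in place of 1 among cells without a Mki67 UMI, where Tbk1 reached 0.66. That alternative, and the phagocytes with cluster 16 or without cluster 4, were chosen after seeing the data. The class with the highest level was kept for 6 of 10 gene and library pairs with at least 500 genes and at most 10% mitochondrial UMIs, and for 6 of 10 with cells classed by their own marker counts. The cause was not tested. Of the ratios of shares of cells with a UMI, 5 moved by more than their interval with the depth of thinning. Drawn down to 1000 in place of 2000 UMIs, Ikbke was at 3.56 in place of 1.80 in Xist-negative cells and 1.14 in place of 0.750 in phagocytes, and Tmem173 at 0.881 in place of 1.03 in phagocytes. At 4000 UMIs Irf3 was at 0.978 in place of 1.36 in Xist-negative cells and Mb21d1 at 1.72 in place of 1.21 in phagocytes. Depth limits all small classes: Mb21d1 had 4 UMIs per library in dendritic cells and 2 in fibroblasts.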
